A study of Mus musculus with 12 samples.

Results

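The nuclear genes for mitochondrial ribosomal proteins were examined in mouse B cells that carry T58A, a point mutation of MYC, and in wild-type (WT) B cells. They were taken by name, as every gene whose symbol is Mrpl or Mrps followed by a number and at most 1 letter. The rule found 77 genes, the same number in each of the 2 deposited tables, which list 23973 genes for IL7 cultures and 24015 for LPS cultures. The rule uses the symbol alone, though the family was chosen with earlier results of these data known. All 77 genes passed the filter on low counts in both tables.

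The mitochondrial ribosome makes the few proteins that mitochondrial DNA encodes, all of them subunits of the respiratory chain or of ATP synthase. Its RNA comes from mitochondrial DNA, whereas its proteins come from nuclear genes, are made in the cytosol and are imported. Many of these proteins have a counterpart in the bacterial ribosome and others are found only in mitochondria. MYC is a transcription factor that binds the E-box CACGTG with its partner MAX and is known for raising genes of ribosome and mitochondrial biogenesis in growing lymphocytes.

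RNA was sequenced in 12 libraries, 3 in each of 4 groups. T58A and WT B cells of bone marrow were kept for 48 h with IL7, a cytokine that drives B cell precursors. T58A and WT B cells of spleen were kept for as long with LPS, a component of bacterial walls that makes mature B cells divide. T58A exchanges a threonine of MYC whose phosphorylation marks the protein for degradation, the WT mice were littermates, and reads of mutant and normal Myc are counted together. The titles number the libraries as pairs of a T58A and a WT sample, but the labels give neither the age nor the animal of a library, so p-values measure the spread between these libraries, which may be technical in part. In the LPS table the header of 2 T58A columns carries the same number. These are called here the first and the second unnumbered library, and their pair is unknown.

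The libraries held from 5110746 to 10201113 reads in genes. Normalised reads are the reads of a gene divided by the authors' size factor of the library. Myc itself had 3038, 4397 and 4827 normalised reads in IL7 T58A 1, 2 and 3, against 2010, 3204 and 3858 in WT 1, 2 and 3, so each T58A library was above the WT library of its pair. In LPS cultures Myc had 961 and 1418 in the first and second unnumbered T58A library and 693 in T58A 3. The LPS WT libraries 1, 2 and 3 had 749, 1095 and 731, so the groups overlapped and T58A was lower in pair 3. By their sex-linked transcripts, all T58A libraries and WT 3 were male and the other WT libraries female in both cultures, so pair 3 was the only pair of 1 sex. IL7 WT 2 also held Y-linked reads, at a sum of 168 normalised reads for these genes, against 2258 to 2566 in the IL7 T58A libraries and 1.86 in IL7 WT 1. B lineage markers were present in every library, with a summed level from 29168 to 36801 in IL7 T58A and from 34075 to 54133 in IL7 WT libraries, and from 52807 to 56355 in LPS T58A and from 51881 to 57750 in LPS WT libraries. In IL7 cultures 4 of these 7 markers and 3 of 5 markers of mature B cells fell in T58A. So did 2 of 6 markers of marrow B precursors, Rag1 by 0.78 and Rag2 by 0.84. These calls and those below use limma with the pair as a block (adjusted p under 0.05). In that fit 6.31% of all genes fell and 6.41% rose, and without the block 0 genes passed. The groups overlapped for Cd79b, Ptprc, Cd22, H2-Ab1, Cd83 and Ms4a1, and did not for Cd79a, Rag1 and Rag2. Of 9 myeloid markers, 1 of the 7 tested fell, and the 9 summed to between 915 and 1447 in IL7 T58A and between 1395 and 2566 in IL7 WT libraries. Of the 5 T and NK cell markers in the table, 1 was tested and fell, and their sum lay between 15.2 and 27.9 in IL7 T58A and between 38.5 and 54.8 in IL7 WT libraries, while the 4 globin genes of the erythroid list were at 0 and its Car2 rose by 0.50. Of 5 plasmablast markers, Sdc1 rose by 0.47 and Igj, which IL7 WT 2 held at 611, fell by 2.05 in IL7 cultures, and in LPS cultures all 5 were lower on average and none passed. They summed to between 5951 and 6383 in IL7 T58A and between 5464 and 6564 in IL7 WT libraries, and to between 19399 and 57062 in LPS T58A and between 31938 and 84329.7 in LPS WT libraries. The part of these cells in the results on the family was not tested. Sex was added as a term for IL7 cultures only, in a fit that rests on pair 3, and its part was not otherwise tested. In cultures of this kind fewer cells of a type and less RNA per cell cannot be told apart.

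The family held a small share of the transcripts, which did not differ by genotype beyond the spread between libraries. In IL7 cultures its 77 genes took 0.412%, 0.422% and 0.424% of the reads in T58A 1, 2 and 3, against 0.401%, 0.385% and 0.428% in WT 1, 2 and 3. The T58A mean was 0.419% ± 0.00634 and the WT mean 0.405% ± 0.0218 (SD, n = 3 each). The groups overlapped, since WT 3 was above every T58A library, and the difference of the means was smaller than the spread of the WT libraries. Within the pairs, the share was higher in T58A in pairs 1 and 2 and slightly lower in pair 3. In LPS cultures the share was 0.354% and 0.268% in the first and second unnumbered T58A library and 0.312% in T58A 3, against 0.309%, 0.268% and 0.313% in WT 1, 2 and 3. The means were 0.311% ± 0.0432 in T58A and 0.297% ± 0.0253 in WT (SD, n = 3 each), and the groups overlapped widely. The balance of the subunits did not move with genotype beyond its spread. Genes of the large subunit held 2.26 ± 0.0312 times the reads of those of the small subunit in IL7 T58A and 2.27 ± 0.0366 times in IL7 WT libraries, and 2.12 ± 0.0449 times in LPS T58A and 2.12 ± 0.0748 times in LPS WT libraries (SD, n = 3 each).

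**Figure D1:**
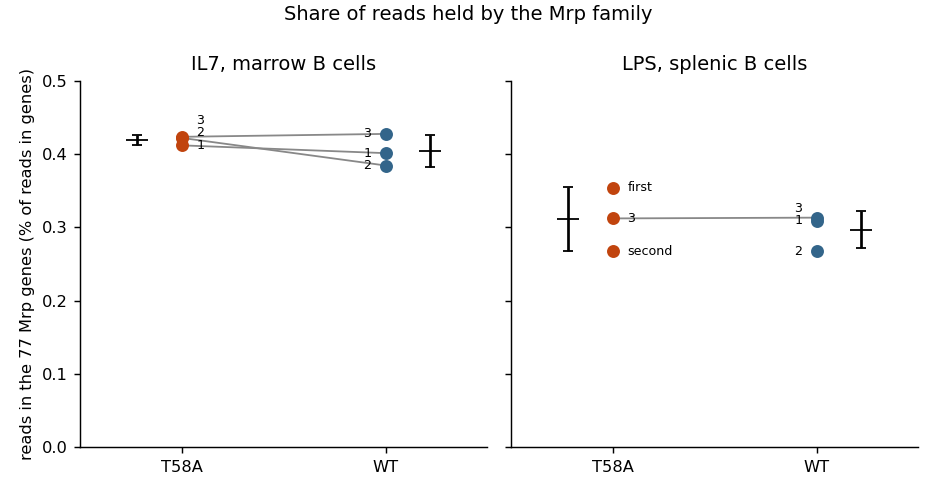
Reads in the 77 Mrp genes as a percentage of all reads in genes, in T58A (left of each panel) and WT libraries (right), with grey lines joining the libraries of a known pair and bars giving the mean ± SD of 3 libraries. IL7 T58A libraries lie between 0.412% and 0.424% and IL7 WT libraries between 0.385% and 0.428%, so the groups overlap, as they do in LPS cultures.

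The members differed far more from each other than between genotypes. Per kilobase of transcript, which allows levels of different genes to be compared, the median member stood at 303 normalised reads in IL7 cultures and at 160.4 in LPS cultures, and the members ranged from 23.3 to 995.5 and from 15.8 to 945. These scales belong to tables normalised separately and are not set against each other. The order of the members was much alike in both cultures (Spearman's rho 0.93 over 77 genes, which share their lengths and annotation, as a description).

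At the top in IL7 cultures stood genes of the large subunit. Mrpl20 had 1041 ± 125 normalised reads per kb in T58A and 949.6 ± 121 in WT libraries (SD, n = 3 each). Mrpl12, the protein of the flexible stalk that meets the translation factors, had 1022 ± 42.4 in T58A and 917 ± 96.2 in WT libraries. Mrpl54, Mrpl18 and Mrpl33 followed, with 894 ± 209.9, 859.5 ± 51.2 and 827 ± 48.7 in T58A and 886 ± 157, 838 ± 69.0 and 834 ± 61.3 in WT libraries. Mrpl18 is a protein of the central protuberance, the part that in bacteria holds 5S RNA. In each genotype, neighbours in this order differed by less than the larger of their SDs. In LPS cultures Mrpl52 led with 932 ± 136 normalised reads per kb in T58A and 958 ± 66.8 in WT libraries, ahead of Mrpl33 with 670.1 ± 269 and 697 ± 214. Mrpl30, Mrpl54 and Mrpl20 came next at 538 ± 141, 488 ± 45.8 and 437 ± 158 in T58A and at 481 ± 117, 507 ± 76.4 and 529.9 ± 207 in WT libraries, and these neighbours too differed by less than the larger of their SDs.

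At the bottom stood mostly genes with close copies elsewhere in the genome, with which an aligner can share or lose their reads. Mrpl23, on chromosome 7 from 142532686 to 142540747 (GRCm38), had 25.6 ± 8.18 normalised reads per kb in IL7 T58A and 20.9 ± 1.85 in IL7 WT libraries, and the pseudogene Mrpl23-ps1 holds a copy of its whole coding part. Mrps36, on chromosome 13 from 100735955 to 100744659, had 21.8 ± 0.319 in T58A and 30.7 ± 3.72 in WT libraries. It has copies in 4 other genes, the fullest of which covers its whole coding part. Mrps33 and Mrpl48 have 1 copy each and stood at 46.1 ± 5.18 and 47.6 ± 1.53 in T58A and at 44.4 ± 6.10 and 44.5 ± 2.30 in WT libraries. Mrpl17 was the fifth from the bottom, at 78.7 ± 5.30 in T58A and 66.2 ± 7.32 in WT libraries, without a copy but with an annotated transcript of 7300 bases. In LPS cultures the lowest 5 were Mrps36, Mrpl23, Mrps5, Mrpl48 and Mrps33, at 23.4, 21.8, 28.9, 34.3 and 34.1 in T58A and at 8.20, 10.3, 27.1, 30.3 and 36.3 in WT libraries. The copy of Mrps5 covers 78.2% of its coding part. Mrps5 and Mrpl48 also have long annotated transcripts, of 4481 and 4285 bases, which lower a level per kb. The part of copies and of length in these ranks was not tested. Over the family, the 14 members with a copy of at least 80% of their coding part at 95% identity had a median of 172 normalised reads per kb in IL7 cultures, against 372 for the other 63. Levels of those 14 genes are uncertain for this reason. The exons of 32 members overlap those of another gene, which adds a like doubt to them.

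In IL7 cultures the typical family member was slightly higher in T58A libraries on average. Of the 77 genes, 58 had a positive change (75.3%, against 49.0% of all 11604 genes tested), and the median log2 change was 0.07, against -0.01 over all genes. Only 3 members passed the test, Mrps27, Mrpl16 and Mrps18b, and all 3 rose in T58A, while 0 fell. That is 3.9% of the family, below the 6.41% of all genes that rose, while 6.31% of all genes fell (limma on log2 of the normalised reads plus 1, with the pair as a block, adjusted p under 0.05). At an unadjusted p under 0.05, 11 members were higher and 0 lower, beside 15% of all genes that were higher and 15.1% that were lower at that level. The members' changes lay between -0.46 and 0.42 and had an SD of 0.14, against 0.36 over all genes. Members also varied less between replicates, with a median SD of 0.12 within groups, against 0.17 over all genes, in log2 units.

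**Figure D2:**
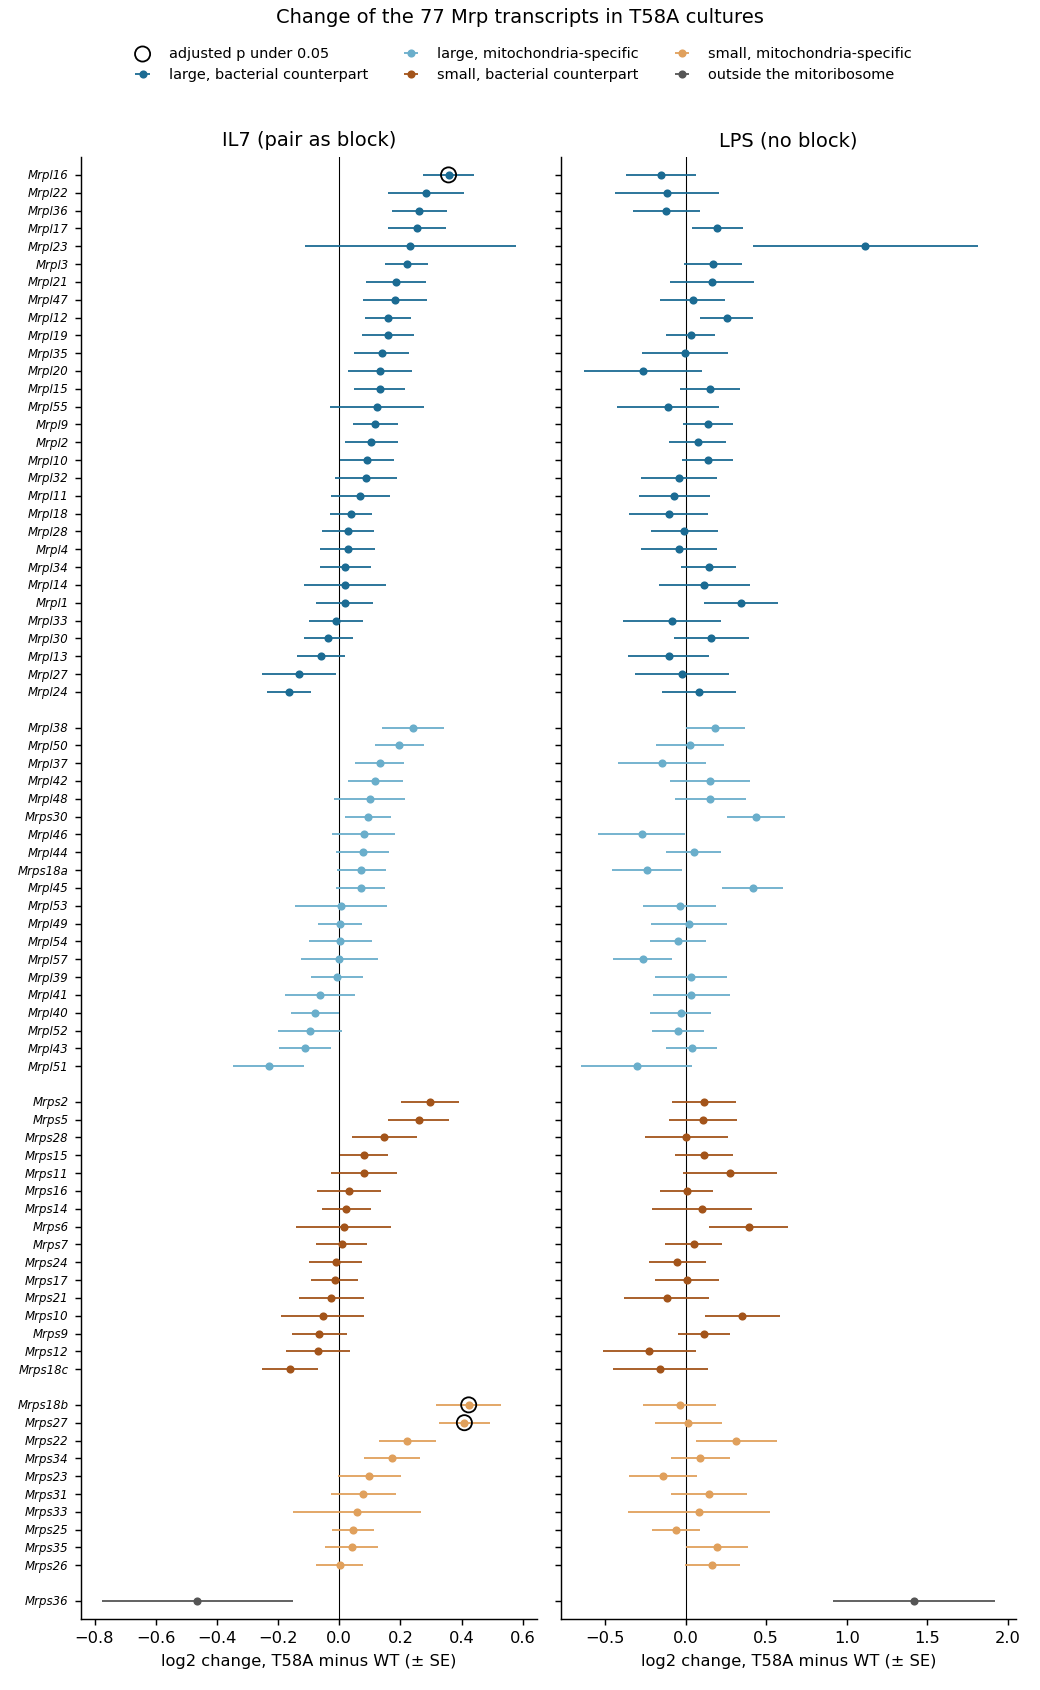
Log2 change of each of the 77 members, T58A minus WT, with its SE, in IL7 cultures (left, pair as block) and LPS cultures (right, no block), grouped by subunit and origin. The 3 circled genes, Mrpl16, Mrps18b and Mrps27, passed at an adjusted p under 0.05 in IL7 cultures and none is circled in LPS cultures, where Mrps36 at 1.42 stands far to the right.

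Mrps27, a protein of the small subunit that is found only in mitochondria and belongs to the pentatricopeptide repeat family of RNA-binding proteins, had the smallest p. Its gene lies on chromosome 13 from 99344786 to 99415562. It had 595, 639 and 688 normalised reads in IL7 T58A 1, 2 and 3, against 482, 476 and 487 in WT 1, 2 and 3. Every T58A library was above every WT library. The log2 change was 0.41 ± 0.08 (SE, limma adjusted p = 0.0185). The authors' deposited table gives it a log2 change of 0.36 and an adjusted p of 0.0294, and it was the 1 member of the 75 with an adjusted p that the authors' deposited table puts under 0.05 among higher genes, where 4.67% of all genes are. A part of its exons, 24.2%, overlaps those of 6430562O15Rik.

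Mrpl16, a core protein of the large subunit near the site where peptide bonds form, lies on chromosome 19 from 11770391 to 11774960. It had 537, 551 and 583 normalised reads in IL7 T58A 1, 2 and 3, against 431, 433 and 439 in WT 1, 2 and 3. The groups did not overlap and the WT libraries lay close together. The log2 change was 0.36 ± 0.08 (SE, limma adjusted p = 0.0274), and neither a copy nor an overlapping gene was found.

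Mrps18b, on chromosome 17 from 35910379 to 35916389, is 1 of 3 mammalian relatives of bacterial ribosomal protein S18. It had 313, 272 and 359 normalised reads in IL7 T58A 1, 2 and 3, against 236, 221 and 242 in WT 1, 2 and 3. The groups did not overlap, and T58A 2 was the lowest of its group as WT 2 was of the WT group. The log2 change was 0.42 ± 0.11 (SE, limma adjusted p = 0.0359). Gm13552 copies 54.3% of its coding part and Gm16279 overlaps 30.5% of its exons, so its level is uncertain. The other relatives did not pass. Mrps18a, which sits in the large subunit, had a log2 change of 0.07 ± 0.08 (limma adjusted p = 0.590), and Mrps18c, the one in the bacterial place, had one of -0.16 ± 0.09 (limma adjusted p = 0.276). Per kb, Mrps18a was at 619 ± 19.6 normalised reads in IL7 T58A and 589 ± 36.0 in WT libraries, Mrps18b at 291 ± 40.2 and 216 ± 10.1, and Mrps18c at 499 ± 54.7 and 559 ± 65.6 (SD, n = 3 each).

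These 3 calls rest on the pair as a block and on pairs 2 and 3, and all 3 still passed when a library of pair 1 was left out. Without the block, adjusted p was 0.168 for Mrps27, 0.175 for Mrpl16 and 0.210 for Mrps18b in limma, and 0 members and 0 of all 11604 genes passed. Without pair 2 it was 0.0712, 0.0966 and 0.0701, and 0.307, 0.429 and 0.350 once the sex of the library was added as a term. Their log2 changes without pair 2 stayed at 0.40, 0.36 and 0.49, and in pair 3, where both libraries were male, they were 0.50, 0.41 and 0.56.

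**Figure D3:**
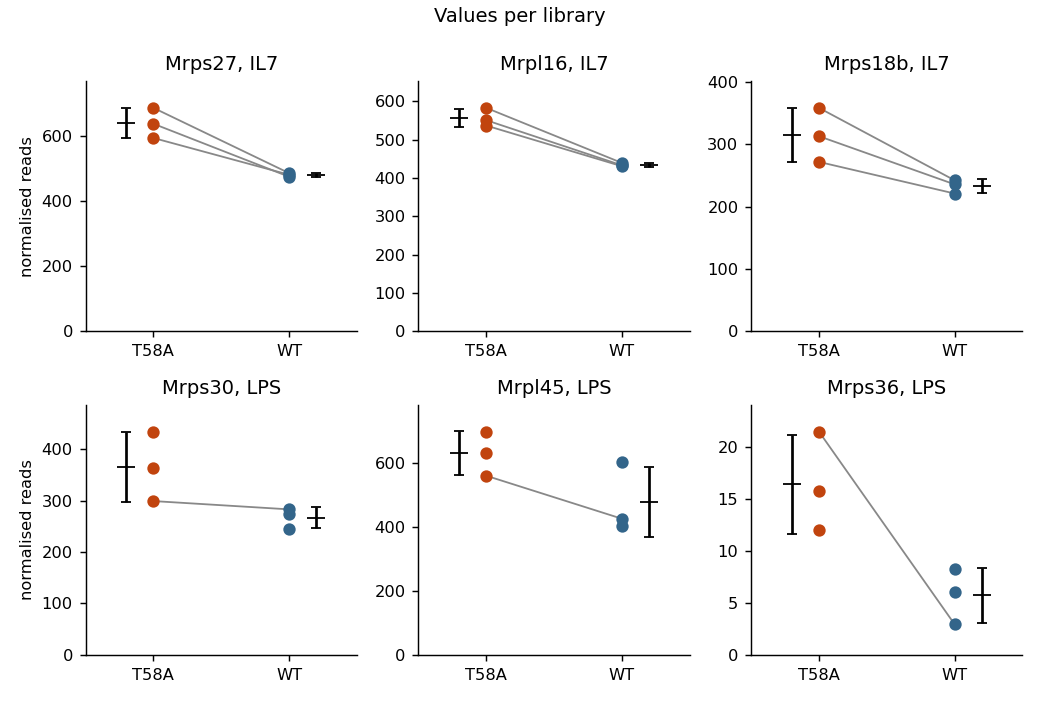
Normalised reads per library of 6 members, T58A at the left and WT at the right of each panel, with grey lines joining known pairs and bars giving the mean ± SD of 3 libraries. In IL7 cultures the T58A points of Mrps27, Mrpl16 and Mrps18b all lie above the WT points, and in LPS cultures the same holds for Mrps30 and Mrps36 but not for Mrpl45.

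Promoters are shown for Mrps27 and Mrpl16, which rose and for which bases before the start lie outside the exons of any gene, and for the members whose promoter holds an E-box. Promoters come from RefSeq (GRCm38.p6), whose table holds 75 windows of 300 bases for 69 of the 77 members. Both strands were searched for the E-box CACGTG, for an NRF1 motif, written as GCGC and TGCGC with any 1 base between them, and for an ETS motif written CCGGAAGT, and no hits of different motifs overlapped. NRF1 and ETS factors such as GABP are known activators of nuclear genes for mitochondrial proteins. The sequences read 5′ to 3′ on the gene's strand and capitals mark a motif. The Mrps27 stretch is chr13:99344706-99344785, plus strand, the 80 bases between its start and that of Ptcd2, which runs the other way. The Mrpl16 stretch is chr19:11770165-11770390, plus strand, 226 bases, and holds none of the 3 motifs.
Mrps27: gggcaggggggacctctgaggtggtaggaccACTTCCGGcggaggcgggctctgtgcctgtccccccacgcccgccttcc
Mrpl16: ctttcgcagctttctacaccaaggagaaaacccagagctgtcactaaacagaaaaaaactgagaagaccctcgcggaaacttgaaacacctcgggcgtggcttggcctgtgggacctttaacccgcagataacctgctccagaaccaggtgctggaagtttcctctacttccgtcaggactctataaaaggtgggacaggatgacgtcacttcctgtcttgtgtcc

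The capitals in the Mrps27 stretch are the ETS motif on the other strand. E-boxes were found in 7 windows of 5 members (9.3% of the family's windows, against 10.3% of those of other genes tested in IL7 cultures and 7.1% of all other windows). NRF1 motifs were in 17.3% of the family's windows, against 10.4% and 4.6%, and ETS motifs in 16.0%, against 8.2% and 3.9%. The windows of Mrpl2 overlap and hold the same E-box. Counted by gene, 5 of 69 members had an E-box, against 1061 of 8695 other genes tested in IL7 cultures. For NRF1 the counts were 13 and 1063 of the same genes, and for ETS 12 and 830. The 5 distinct E-boxes, each with 12 bases to either side, are at chr17:46646078-46646107 (plus strand) for Mrpl2, chr4:155802833-155802862 (plus strand) for Mrpl20, chr13:73330954-73330983 (plus strand) for Mrpl36, chr4:107067011-107067040 (minus strand) for Mrpl37 and chr5:100798584-100798613 (plus strand) for Mrps18c. In the last, the E-box runs directly into an ETS motif on the other strand, and both are in capitals.
Mrpl2: actgccgcccgtCACGTGacccgagcaacc
Mrpl20: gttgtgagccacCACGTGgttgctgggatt
Mrpl36: cacacgtcatccCACGTGaccttacgccat
Mrpl37: agcaagtttcttCACGTGtggcacttcaga
Mrps18c: gcagccccgggtCACGTGACTTCCGGcccg

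None of the 5 genes passed the test in either culture. In IL7 cultures Mrpl36 had a log2 change of 0.26 ± 0.09 (limma adjusted p = 0.0883) and Mrps18c one of -0.16 ± 0.09. Mrpl2, Mrpl20 and Mrpl37 had changes of 0.10, 0.13 and 0.13, so 4 of the 5 were positive, beside 75.3% of the whole family. A match of letters is not a bound site, and binding was not analysed here. Of the 77 members, 18 (23.4%) start within 1000 bases of a protein-coding gene that runs the other way, against 11% of other protein-coding genes tested in IL7 cultures. Mrps27 starts 81 bases from Ptcd2 and Mrps18b 45 bases from Ppp1r10.

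The next 9 members by p were all higher on average in IL7 T58A libraries, and none passed. In the small subunit, Mrps2 had 711, 862 and 796 normalised reads in T58A 1, 2 and 3, against 620.0, 592 and 717 in WT 1, 2 and 3, with a log2 change of 0.30 ± 0.09 (limma adjusted p = 0.0737). Mrps5, a protein by the path of the incoming mRNA, had 368, 408 and 438 in T58A, against 309, 302 and 411 in WT libraries, and Mrps22, a protein of mitochondria only, had 349.6, 404 and 397, against 293, 332 and 362. In both genes the WT 3 library lay above T58A 1 and the groups overlapped. In the large subunit, Mrpl3, a core protein at the base of the peptidyl transferase centre, had 956, 1032 and 1080.5 normalised reads in T58A, against 823, 843 and 972 in WT libraries (log2 change 0.22 ± 0.07, limma adjusted p = 0.0781). The changes of Mrpl36, Mrpl17, Mrpl50, Mrpl38 and Mrpl22 lay between 0.20 and 0.28, with limma adjusted p from 0.0883 to 0.168. Mrpl22 lines the exit tunnel, and its libraries did not overlap, with 196, 164 and 159.8 normalised reads in T58A and 149, 140.4 and 135 in WT libraries. Those of Mrpl38, a protein of the central protuberance, did not overlap either, with 542, 592 and 572 in T58A and 535, 430.3 and 482 in WT libraries.

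Of the 5 members with the smallest p among those that were lower on average, none passed either. Mrpl24, a protein at the mouth of the exit tunnel, had 849, 827 and 765 normalised reads in IL7 T58A 1, 2 and 3, against 927, 900.4 and 904 in WT 1, 2 and 3. Its groups did not overlap, at a log2 change of -0.16 ± 0.07 (limma adjusted p = 0.170). Mrps36 had 15.1, 15.5 and 15.2 normalised reads in T58A, against 21.3, 19.0 and 24.2 in WT libraries, and its groups did not overlap at these low counts (log2 change -0.46 ± 0.31, limma adjusted p = 0.351). Despite its name, the protein is a part of the ketoglutarate dehydrogenase complex and not of the mitochondrial ribosome. Mrpl51, Mrps18c and Mrpl43 had log2 changes of -0.23, -0.16 and -0.11, with overlapping groups.

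Groups without overlap were no more frequent in the family than elsewhere. The lowest T58A library was above the highest WT library for 8 members, Mrpl16, Mrpl21, Mrpl22, Mrpl38, Mrps18b, Mrps27, Mrps30 and Mrps34, whereas 12.9% of all genes did so. The T58A libraries were all below WT for 2 members, Mrpl24 and Mrps36, beside 10.8% of all genes. Within the numbered pairs, 24 members were higher in T58A in all 3 pairs (25.9% of all genes were), 5 were lower in all 3 (26% of all genes were), and 48 were of mixed direction.

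The family's shift was widest in pair 2. The median member was higher in T58A by 0.03 in pair 1, with 47 of 77 members higher, by 0.14 in pair 2, with 64 higher, and by 0.01 in pair 3, with 42 higher, in log2 units. All genes tested had medians of -0.01, 0.00 and -0.01 in the same pairs. Pair 2 holds IL7 WT 2, the library with reads of both sexes, and without this pair the family's median was 0.03, with 45 of 77 positive and 0 members passing (2.96% of all genes still rose and 3.71% fell). With sex as a further term the median was 0.01, with 42 positive and 0 passing, which rests on the difference within pair 3 (0.112% of all genes rose and 0.25% fell).

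**Figure D4:**
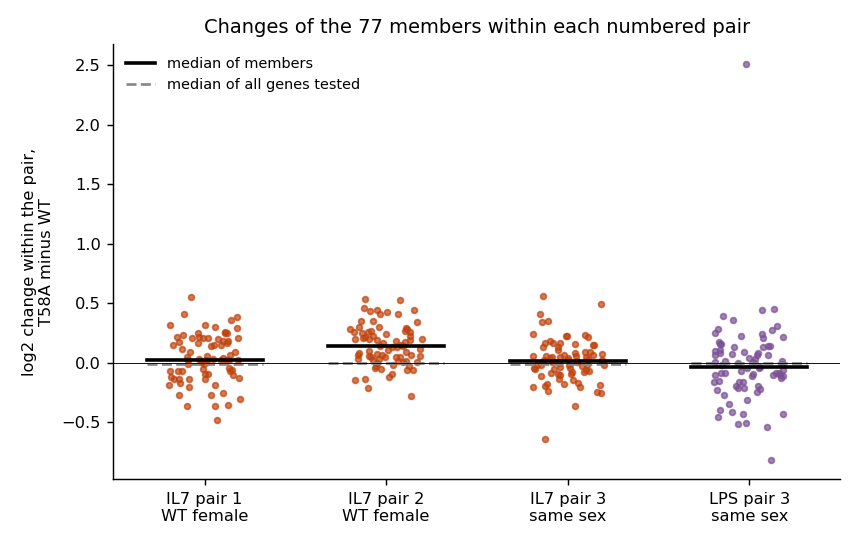
Log2 change of each of the 77 members within each pair whose number is known, T58A minus WT, with the median of the members as a black line and that of all genes tested as a dashed grey line. The members' median is 0.14 in IL7 pair 2, against 0.03 in pair 1 and 0.01 in pair 3 of IL7 and -0.03 in pair 3 of LPS.

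By place and origin, the classes of the family overlapped in IL7 cultures. The 50 members of the large subunit had a median change of 0.08, with 39 positive and 1 call, and the 26 of the small subunit had a median of 0.04, with 19 positive and 2 calls. All 10 members of the small subunit that are found only in mitochondria were positive, at a median of 0.09, against 9 of 16 with a bacterial counterpart, at a median of 0.01. In the large subunit, 25 of 30 members with a bacterial counterpart were positive, at a median of 0.11, and 14 of 20 of those found only in mitochondria, at a median of 0.04. The leaning towards proteins of mitochondria only in the small subunit was thus not seen in the large one, and no class was tested against another.

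In LPS cultures no member passed. The median change was 0.04, against 0.01 over all 11291 genes tested, and 47 of 77 members were positive (61.0%, against 52.4% of all genes). The direction turned with 1 library, since the median was -0.08 without the first unnumbered T58A library and -0.04 without WT 2. By limma without a block, 0 members and 0% of all genes passed in either direction, and at an unadjusted p under 0.05 there were 2 members, Mrps30 and Mrps36, both higher (1.16% of all genes were higher and 1.36% lower at that level). edgeR, DESeq2 and limma-voom gave 0 members as well. With the block that puts the first unnumbered library with WT 1, 0 members passed (0.0177% of all genes rose) and the smallest limma adjusted p of a member was 0.111. The exchanged block also gave 0 members, with a smallest limma adjusted p of 0.999975. The median SE of the members was 0.118 with the former block and 0.217 with the exchanged one, so the precision depended on an unknown pairing. Of the 31 members with an adjusted p in the authors' deposited table, 0 are under 0.05, where 1.49% of all genes are among those higher, and the smallest is 0.0983. The spread between replicates was wider than in IL7 cultures, with a median SD within groups of 0.29 for members and 0.26 for all genes in log2 units.

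Mrps30, which in spite of its name sits in the large subunit and is found only in mitochondria, had 434 and 363 normalised reads in the first and second unnumbered LPS T58A library and 299 in T58A 3, against 245, 273 and 283 in WT 1, 2 and 3. The T58A libraries were all above the WT libraries, T58A 3 by little. Its log2 change was 0.44 ± 0.18 (limma adjusted p = 1.00), and in IL7 cultures it was 0.09 ± 0.08 (limma adjusted p = 0.442), also without overlap. Together with Mrps36 it was 1 of 2 members whose LPS groups did not overlap upwards, beside 3.1% of all genes, while 0 members did so downwards, beside 3.3% of all genes.

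Mrpl45, the protein of the large subunit that anchors the ribosome at the inner membrane, had 634, 699.6 and 561 normalised reads in the LPS T58A libraries in the same order, against 405, 605 and 427 in WT 1, 2 and 3. WT 2 lay above T58A 3 and the groups overlapped (log2 change 0.42 ± 0.19). Mrps36 had 12, 15.8 and 21.5 normalised reads in T58A, against 8.24, 6.05 and 2.95 in WT libraries, on 3 to 22 reads per library, where a count of 3 is the limit that 0 reads would allow. Its log2 change of 1.42 ± 0.50 did not pass. Mrpl23 had 24, 14.3 and 6.84 in T58A, against 6.87, 1.73 and 12.8 in WT libraries, and the groups overlapped. The other 8 members named by p, Mrps6, Mrpl12, Mrps10, Mrpl1, Mrpl17, Mrps22, Mrps35 and Mrpl38, had log2 changes from 0.19 to 0.39 with overlapping groups. Of these, Mrpl17, Mrps22 and Mrpl38 were also among the 12 members with the smallest p in IL7 cultures. Among members lower on average, Mrpl57, Mrps18a, Mrpl46, Mrpl51 and Mrps12, the last a protein of the decoding centre, had changes from -0.30 to -0.23, again with overlap.

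The LPS libraries fell into levels that did not follow genotype. The second unnumbered T58A library and WT 2 had the lowest family shares, and between these 2 libraries the median member differed by -0.01 with 38 of 77 higher in T58A. Against WT 1, the first unnumbered T58A library had a median of 0.16 with 60 members higher. Set the other way, the first had a median of 0.47 against WT 2, with 72 members higher. The second had a median of -0.29 against WT 1, with 17 members higher. The size and sign of these differences thus depended on which libraries were set together. In pair 3 the median was -0.03 with 36 members higher.

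The difference between the T58A effects in the 2 cultures was tested over all 12 libraries without a block. No member passed and 0% of all 10767 genes tested in both tables did. Mrps36 had the smallest p of the family, with a T58A change in IL7 minus LPS cultures of -1.88 ± 0.53 log2 units (SE, limma adjusted p = 0.996). Mrpl16 followed, with a difference of 0.51 ± 0.24, then Mrps30 with -0.34 ± 0.19, Mrps18b with 0.46 ± 0.27 and Mrps27 with 0.39 ± 0.23. The 3 genes that rose in IL7 cultures had LPS changes of -0.15 ± 0.22 for Mrpl16, -0.04 ± 0.23 for Mrps18b and 0.02 ± 0.21 for Mrps27. A block was also run that puts the first unnumbered LPS library with WT 1, a pairing that the labels do not give. With this block, Mrpl16 was the 1 member that passed, at an SE of 0.12 and a limma adjusted p of 0.0456. Of all genes, 0.901% passed in that direction and 3.19% in the other. The exchanged pairing was not run for this difference. Over the 77 members, the changes in the cultures were hardly related (Spearman's rho 0.15, as a description).

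Between the cultures themselves, WT libraries were set side by side as CPM, the reads of a gene scaled to a common library total, since the tables were normalised separately, and tissue and stimulus cannot be told apart. All 3 IL7 WT libraries were above all 3 LPS WT libraries for 45 of 77 members, beside 38.5% of all genes, and below them for 3 members, beside 25.4% of all genes. The median difference was 0.44 log2 units for members and 0.15 for all genes. Mrps18a had the largest one, at 56.1 CPM in IL7 WT (53.8 to 60.1) and 22.3 in LPS WT libraries (19.1 to 25.5), followed by Mrpl2 with 76.2 (66.6 to 82.5) and 32.2 (28.6 to 35.3). At the other end stood Mrpl52, with 35.3 (30.6 to 39.7) in IL7 WT and 58.3 (54.0 to 60.9) in LPS WT libraries, and Mrps16, with 34.8 (30.8 to 41.1) and 56.7 (47.8 to 61.3). These genes were chosen after their values were seen.

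Some other nuclear genes of mitochondrial gene expression rose in IL7 T58A cultures, though most of those listed did not pass. The lists were chosen with earlier results of these data known, and 6.41% of all genes rose and 6.31% fell in the same test. Of 6 mitoribosomal proteins with other names, Ptcd3, a pentatricopeptide protein of the small subunit, rose by 0.34 ± 0.08 (limma adjusted p = 0.0281), and Gadd45gip1, Chchd1, Aurkaip1, Dap3 and Ict1 did not pass, with changes from 0.00 to 0.24. Of 17 factors of mitochondrial translation and mRNA care, 3 rose, Gfm1, an elongation factor, by 0.37, Lrpprc, an mRNA-stabilising protein, by 0.34 and Taco1, which aids translation of a cytochrome oxidase subunit, by 0.38. Of 28 genes of ribosome assembly, 1 rose, Fastkd2, by 0.44 ± 0.09 (limma adjusted p = 0.0202). Of 20 genes for mitochondrial tRNA synthetases and charging, those that rose included Mars2, by 0.52, and Iars2, by 0.29. No gene of these 4 short lists passed as lower.

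Of 20 genes of mitochondrial DNA upkeep and transcription, 3 rose and 2 fell. The coactivators Pprc1 and Ppargc1b rose by 0.43 and 0.73 and the helicase gene Peo1 by 0.33, while Mterfd3, of the transcription terminator family, and Tk2, a mitochondrial thymidine kinase, fell by 0.49 and 0.47. Of 24 genes of protein import and folding, 6 rose and 22 were positive, at a median of 0.19, against 0.07 for the Mrp family and -0.01 for all genes. Among them Hspd1, the chaperonin of the matrix, rose by 0.51, Tomm70a, an import receptor, by 0.29 and Tomm40, the import pore, by 0.34. Without pair 2 the calls in these 6 lists were 0, 1, 0, 1, 2 and 1 upwards, in the order given, and with sex as a further term 0 in each. In LPS cultures 0 genes of the 6 lists passed, and their medians lay between 0.08 and 0.13, against 0.04 for the Mrp family and 0.01 for all genes.

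**Figure D5:**
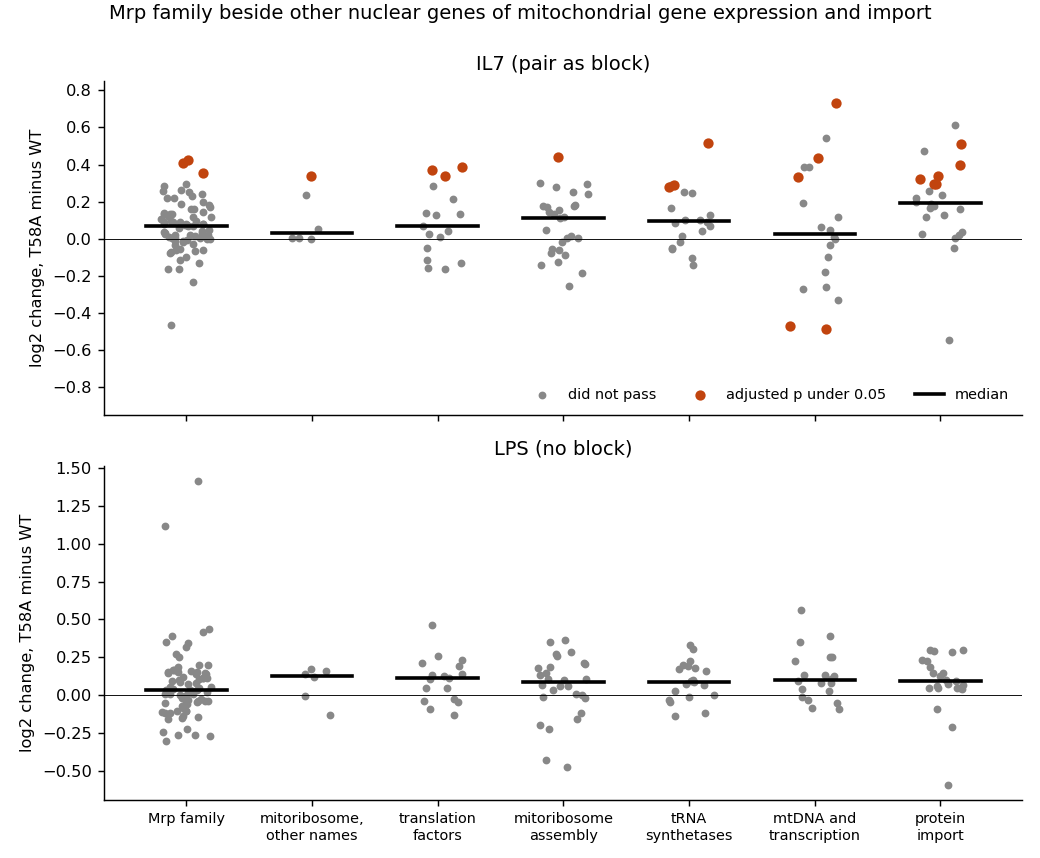
Log2 change of each gene, T58A minus WT, for the Mrp family and 6 lists of other nuclear genes of mitochondrial gene expression and import, in IL7 (top) and LPS cultures (bottom), with each list's median as a black line. Orange points passed at an adjusted p under 0.05. The Mrp family has 3 of them among 77 genes and protein import 6 among 24 in IL7 cultures, and LPS cultures have none.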

How the data were processed

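RNA was sequenced in 12 libraries of T58A and WT mouse B cells, grouped by title and column header. Per the submitters' processing notes, the tools were bcl2fastq 1.8.4, TopHat2 2.1.0, HTSeq 0.6.1 and DESeq2 (version not given in the sources used here), with build mm10. The authors deposited, per gene, a normalised signal in each library and their own log2 fold changes, p-values and adjusted p-values. The signal is the number of reads over the library's size factor, since 100% of the values were whole multiples (within 0.001 reads) of a library's lowest step. From 5110746 to 10201113 reads per library set the precision. A count of 0 allows up to 3 reads, or 2.15 to 4.12 normalised reads, for counting error only.

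Genes were filtered per table with filterByExpr (edgeR 4.0.16, minimum count 10, minimum total 15), and T58A was tested against WT with limma 3.58.1 (trend) in R 4.3.3 on log2 of the normalised reads plus 1, with Benjamini-Hochberg adjustment over all genes. A fold change on this scale understates that of low genes. The plan foresaw this test for normalised values. IL7 libraries were fitted with the pair as a block: the pairing comes from the titles, and same-numbered libraries deviated together (r = 0.41, 0.15 and 0.40, against -0.36 to -0.05 for others). The r values of a T58A library with the 3 WT libraries nearly cancel (0.41, -0.08 and -0.36 for T58A 1). The others are therefore not an independent baseline. LPS libraries and the difference between cultures were fitted without a block, since 2 columns give no pair. The unnumbered libraries correlated best with WT 1 (first, r = 0.34) and WT 2 (second, r = 0.66).

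Alternatives were other blocks, sex as a term, scalings (TMM, total counts, size factors of DESeq2 1.42.0), pseudocounts of 0.5 and 5, no filter, edgeR, DESeq2 and limma-voom on the recovered reads, and leaving out each library. The tests were checked on simulated data. Locations, transcript lengths, overlaps and copies (blastn 2.17.0+, identity of at least 95% over at least 100 bases) are from GENCODE M21 on GRCm38, which may not be the annotation the authors used; 77 of 77 members matched. Figures were drawn with matplotlib 3.10.9.

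The members and lists were chosen with earlier results of these data known. The naming rule took, in each culture, the 12 members with the smallest p in the leading direction and 5 in the other, the 5 highest and lowest per kb, the S18 relatives, Mrps30 and Mrps36, mitoribosomal genes with other names, and 5 members for the difference between cultures. From the other lists the rule takes 2 genes per direction and culture, of which only those that passed are described, with further genes that passed, chosen after their values were seen. Some genes of these lists are not reported here.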

Additional observations from a re-analysis of the deposited data

Results flagged for a closer look

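Mrps36 stood out because its T58A libraries moved in opposite directions in the 2 cultures, every one below the WT libraries with IL7 and every one above them with LPS. Its T58A change in IL7 minus that in LPS was -1.88 log2 units (limma adjusted p = 0.996 without a block). With a block that puts the first unnumbered LPS library with WT 1, which the labels do not give, limma adjusted p was 0.102. It was measured on 14 to 23 reads per library in IL7 and 3 to 22 in LPS cultures. Elsewhere in the genome, 4 other genes hold copies of its coding part, the fullest over its whole length.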

How the results depend on the processing

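Of the 5 family results, the LPS count of 0 members held under every alternative run. Both medians moved by less than the replicate spread, 0.0695 in IL7 and 0.166 in LPS cultures. This limit is as large as the IL7 median of 0.07 and larger than the LPS median of 0.04. A fall to 0, or a change of sign in LPS cultures, would stay within it, so it cannot show that the medians are stable. The 3 members called in IL7 cultures became 0 with no replicate block, 0 with pair 2 left out, 0 with sex as a further term and 1 with DESeq2, and leaving out each replicate in turn gave 0 to 5. It was 5 without either library of pair 1 and 0 without either library of pair 2 or of pair 3, and the cause was not tested. With the pair as a block, the lone partner of a left-out library adds nothing to the estimated change. These IL7 fits therefore leave out a whole pair in effect and are not separate checks of each library. In the test of the difference between cultures, 0 members passed without a block. A replicate block that puts the first unnumbered LPS library with WT 1 gave 1 member, Mrpl16. The labels do not give this pairing, and the exchanged one was not run for this test. The family's median without each library in turn ranged from 0.03 to 0.10 in IL7 cultures (0.03 without a library of pair 2) and from -0.08 to 0.16 in LPS cultures (-0.08 without the first unnumbered T58A library and -0.04 without WT 2). In LPS cultures, fits without 1 library gave log2 changes from -0.51 to 0.016 for Mrpl46 and from -0.47 to 0.030 for Mrps12, above 0 only without the second unnumbered T58A library. Scaling, pseudocount, filter, edgeR and limma-voom left the IL7 count within 1.5 times. Depth limits Mrpl23 and Mrps36 in LPS cultures, at 2 to 22 reads.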
